A study of Homo sapiens with 21 samples.

Results

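The 46 genes described here act in G2 phase and mitosis: cyclins and their kinase, other mitotic kinases, the spindle checkpoint, kinetochore proteins, spindle motors, and the proteins of anaphase and cell division. They were taken by symbol from the Ensembl identifiers of a table of read counts with 37637 features. Each of the 46 matched 1 feature, and all of them passed the filter on low counts, which kept 17951 features. The counts come from RNA of HepG2, a human hepatocellular carcinoma line, purified on poly(dT) beads. Cells were moved from medium with serum to DMEM without serum, which held caffeine (a methylxanthine) at 0.01, 0.1, 1, 10, 100 or 1000 µM for 24 h. Control cells had the same change to serum-free medium with caffeine at 0 µM, so serum withdrawal is common to all 7 groups. The design text names 3 biological replicates per group, 21 libraries in all. Nothing in the labels says whether the cultures were grown on different days, so the p-values measure the spread between these libraries, which may be partly technical.

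Entry into mitosis is driven by CDK1 bound to cyclin B and held back by the kinase WEE1, and exit follows when the APC/C ubiquitin ligase, with CDC20, marks cyclin B and securin for destruction. Most genes of this programme are transcribed together from late S phase to mitosis by the MuvB complex with B-MYB and FOXM1, and are kept low in resting cells by the DREAM complex, which reads the CHR element in their promoters. Their summed level in a culture is commonly read as a sign of how many cells are dividing. In bulk RNA, fewer cells in G2 and mitosis cannot be told apart from less of these RNAs per cell.

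Libraries held 23502519 to 44815552 counts each, of which the 46 genes together took 0.225% to 0.452%. Libraries did not fall into sets by dose alone. Clustering on the 13 mitochondrial mRNAs gave 3 sets. Set A was made up of the groups at 0, 0.01 and 0.1 µM plus the 1 µM replicates 1 and 2. Its share of counts in all genes with a mitochondrial (MT-) symbol, not only these mRNAs, was 9.95% to 14.2%. Set B was made up of the 10 µM group, the 1 µM replicate 3, the 100 µM replicate 2 and the 1000 µM replicates 1 and 2, with 4.72% to 4.95%. Set C was made up of the 100 µM replicates 1 and 3 and the 1000 µM replicate 3, with 11.8% to 12.8%. Because all controls were in set A and no 10, 100 or 1000 µM library was, each contrast of these doses with control also crosses sets, and a fit with the set as a term rests on the 1 µM group alone to link sets A and B. Such values are given beside many of the results they touch but not all, so a result printed without one may still differ with the term. All 10 hepatocyte markers on the list were detected (ALB at 6110 to 15340 CPM, which is counts scaled to libraries of 1 size), and some differed with dose: 2 of the 10 were called higher and 4 lower than control at 100 µM, and 2 higher and 6 lower at 1000 µM (median log2 fold change -0.63), beside 46.6% and 57.6% of all features called in either direction. ALB, the albumin gene, went from 12470.0 ± 2556 CPM in control to 8559 ± 192 at 100 µM and 6334 ± 221 at 1000 µM (SD, n = 3), and APOB, an apolipoprotein gene, from 8277 ± 824 to 11910.0 ± 468 and 13510.0 ± 802. VIM, COL1A1, COL1A2 and PTPRC, markers of other cells, had a median of 0 CPM. PECAM1, also on that list, was matched to no feature and so was not measured. ACTA2, the smooth muscle actin gene, had 36.4 ± 2.42 CPM in control, 47.2 ± 6.59 at 100 µM and 18.5 ± 5.10 at 1000 µM, called higher at 100 µM (0.37; not with the set term, 0.20) and lower at 1000 µM (-0.98). The part of these shifts in the results was not tested.

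Mitotic transcripts were near their control level up to 10 µM, about 2-fold higher at 100 µM, and between these levels at 1000 µM. At 100 µM 40 of the 46 genes were higher than in control and 1 was lower, by edgeR's quasi-likelihood test at an adjusted p under 0.05. Across all features tested 46.6% were called at that dose, 23.6% of them all higher and 22.9% lower. The median log2 fold change of the 46 genes was 0.92 against -0.01 over all features. At 1000 µM 25 were higher and 4 lower, a median of 0.39 against -0.01, where 57.6% of all features were called, 28.5% higher and 29.1% lower. The number lower at 1000 µM was 7 without the 1000 µM replicate 3, 8 with only sets A and B, and 2 with the set term or with only the 2 groups in the fit. All doses were compared with the same 3 control libraries, so the doses were also set against each other. Between 10 and 100 µM 44 of the 46 were higher and 0 lower (median 0.88, with 34.4% of all features called and 17.8% higher). From 100 to 1000 µM 36 of the 46 were lower and 0 higher (median -0.61, with 44% of all features called and 22.3% lower). Against 10 µM, 25 were higher and 4 lower at 1000 µM (52.1% of all features called, 26.1% higher and 26% lower), and the number lower was 2 when the 10 µM replicate 1 or the 1000 µM replicate 2 was left out. The joint test over the 6 doses called 45 of the 46, against 73.6% of all features, and the exception was PTTG1.

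The library averages show the same steps. The mean over the 46 genes of log2 CPM relative to control was 0.99, 0.91 and 0.95 in replicates 1, 2 and 3 at 100 µM. It was 0.34, 0.40 and 0.46 in the corresponding 1000 µM libraries. Controls stood at -0.086, -0.063 and 0.15, and the 12 libraries from 0.01 to 10 µM between -0.077 and 0.078. The 100 µM libraries were therefore the highest 3 and the 1000 µM libraries the next 3, with no overlap, and control replicate 3 was the highest of the rest. Singly, 34 of the 46 genes had all 3 of their 100 µM libraries above all 18 others, as did 5.09% of all features. All 3 libraries at 100 µM were above all controls for 41 genes (25.8% of all features), and all 3 at 1000 µM for 25 (28.1%), while TTK, HMMR, KIF20A and ANLN had all 3 at 1000 µM below all controls (28.5%). Between doses, the 100 µM libraries were all above those at 10 µM for 44 genes (25.1%), and the 1000 µM libraries all below those at 100 µM for 37 (22.9%). The highest group mean lay at 100 µM for 41 of the 46 (19.2% of all features) and at 1000 µM for BUB3, CENPE and ECT2 (31.3% of all features).

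**Figure D1:**
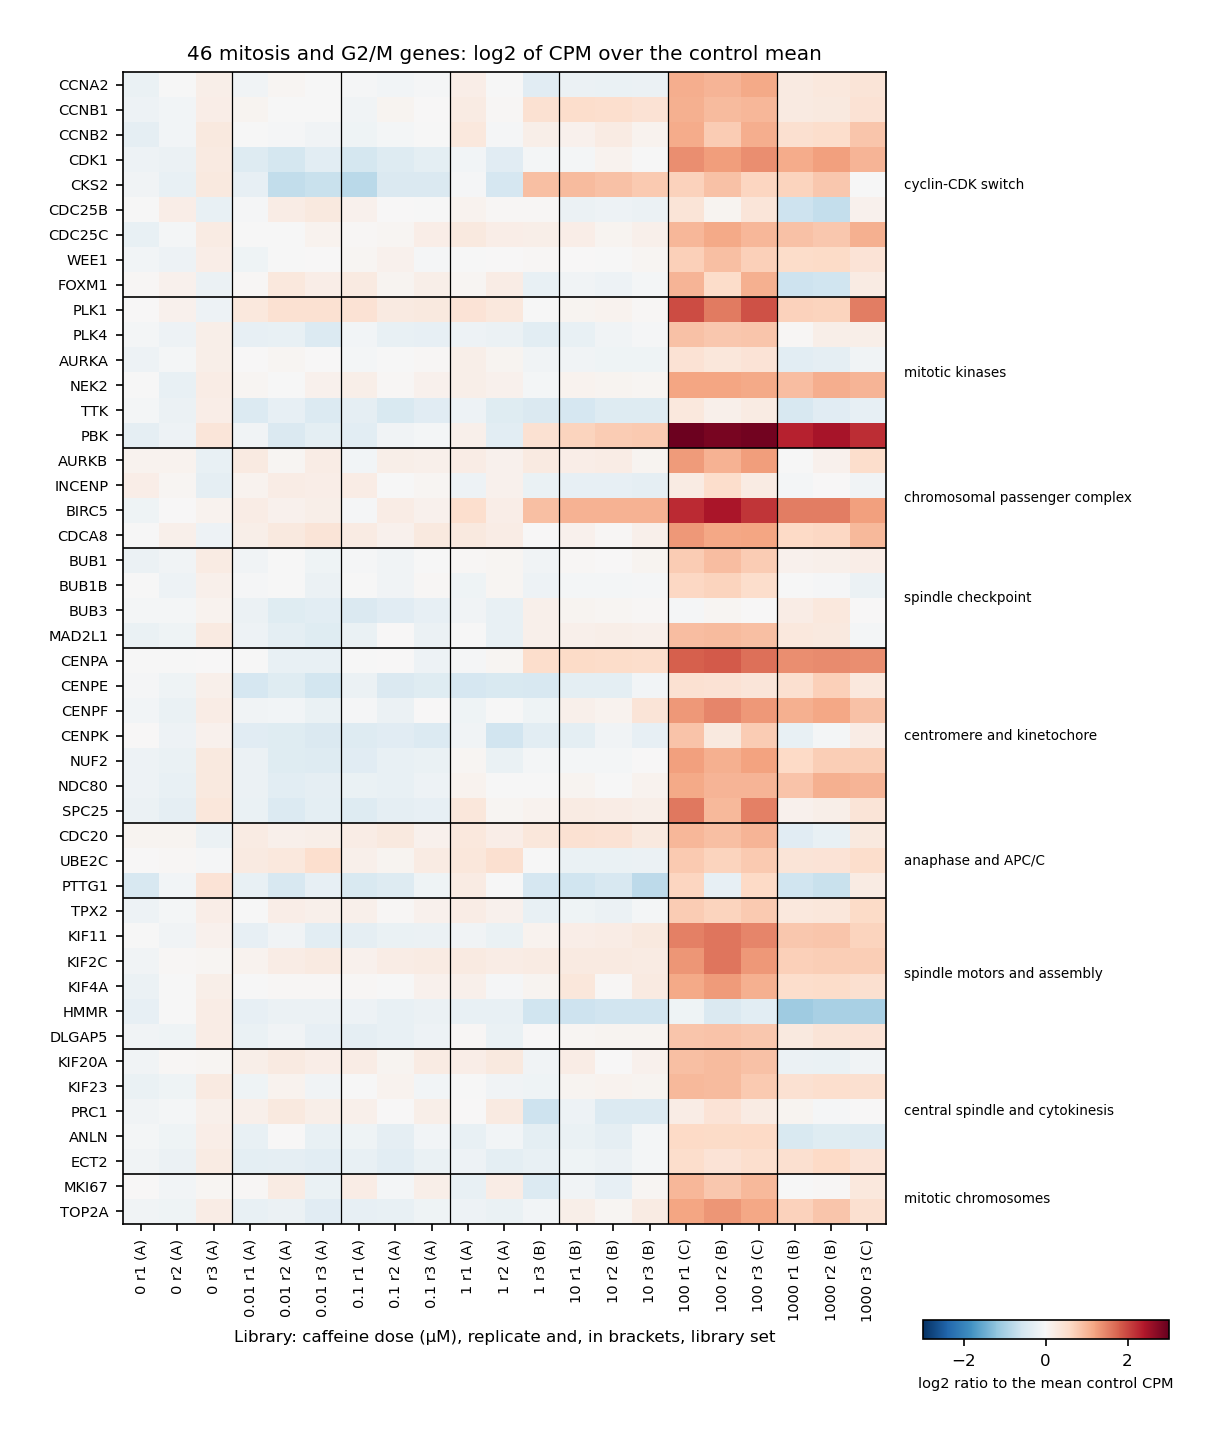
Each row is 1 of the 46 genes, ordered by role, and each column 1 of the 21 libraries, labelled with caffeine dose in µM, replicate and library set; colour is the log2 ratio of CPM to the mean of the 3 controls. The 100 µM columns are red in nearly every row, the 1000 µM columns are paler, and HMMR is blue at 1000 µM.

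At the lowest doses no gene of the group was called. By edgeR's quasi-likelihood test 0 of the 46 passed at 0.01 µM (0.0279% of all features called), where 17 (2698 of all 17951 features) had an unadjusted p under 0.05 and DESeq2 called 3. At 0.1 µM 0 passed (0% of all features), 11 (1701 of all features) had an unadjusted p under 0.05 and DESeq2 called 0. At 1 µM 0 passed (0.106% of all features), 13 (2811 of all features) had an unadjusted p under 0.05 and DESeq2 called 2. With the library set as a term, PLK1 (log2 fold change 0.41) and UBE2C (0.37) were higher and TTK (-0.35), BUB3 (-0.29) and CENPE (-0.46) lower at 0.01 µM, where that fit called 3.02% of all features. UBE2C (0.41) was called at 1 µM in the same fit (0.629% of all features). With only sets A and B kept, 1 of the 46 was called at 0.01 µM (0.449% of all features) and 2 at 1 µM (0.925%).

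At 10 µM 9 of the 46 were called, 7 higher and 2 lower, against 14.8% of all features (7.27% higher and 7.49% lower). Higher were CCNB1 (0.49), CKS2 (0.88), PBK (0.75), BIRC5 (1.04), CENPA (0.55), CDC20 (0.40) and KIF2C (0.26), and lower were TTK (-0.42) and HMMR (-0.59), all as log2 fold changes. The number higher was 4 when any 1 of control replicates 1 and 2 or the 3 libraries at 10 µM was left out, and the number lower was 1 without the 10 µM replicate 1. With the library set as a term 0 of the 46 passed at 10 µM (0.0279% of all features), and BIRC5, the highest of the 9 without it, stood at 0.48 (edgeR's adjusted p 0.897). In the 1 µM group, replicate 3, which shares set B with the 10 µM libraries, had 42.4 CPM of BIRC5 where replicates 1 and 2 had 31.7 and 25.8. CKS2 stood at 72.02 CPM in that library and at 37.4 and 27.2 CPM in the other two.

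The sequences before the transcript starts are shown because 40 of the 46 genes were higher than control at 100 µM and 36 were lower at 1000 than at 100 µM, and because CHR and CCAAT elements are the textbook marks of this class of promoter. RefSeq gave promoters (300 bases, from 250 before to 50 after a transcript start, GRCh38.p14) for 37 of the 46 genes, 49 promoters in all. PBK, AURKA, UBE2C, TTK, BUB3, BIRC5, WEE1, FOXM1 and TPX2 are named only. The search was for the CHR element TTTGAA, its variant TTCGAA, and the CCAAT box, on both strands. TTTGAA was in 29 of the 49 promoters (59.2%), against 5324 of all 35116 (15.2%). In 17 of the 49 (34.7%) its first base lay within 50 bases before the start, against 2.6% of all promoters, a window chosen after the matches were seen. TTCGAA was in 3 (6.1% against 1.4%), CCAAT in 36 (73.5% against 34.6%) and both TTTGAA and CCAAT in 23 (46.9% against 5.9%). These counts describe letters in a window and not bound sites.

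Below are the 110 bases before the start of 8 genes, 5′ to 3′ on the gene's strand, with TTTGAA and CCAAT matches of either strand in capitals (TTCAAA and ATTGG are the same motifs on the other strand). They run from genes that rose at 100 µM with both motifs near the start (PLK1 at chr16:23678779-23678888, plus strand; CCNB2 at chr15:59105036-59105145, plus strand; CDC20 at chr1:43358871-43358980, plus strand; KIF11 at chr10:92593020-92593129, plus strand; MKI67 at chr10:128126424-128126533, minus strand), through CENPA (chr2:26785946-26786055, plus strand) with TTTGAA alone and CCNB1 (chr5:69167040-69167149, plus strand) with CCAAT alone in this stretch, to HMMR (chr5:163460522-163460631, plus strand), which carries both and was not higher than control at 100 µM.
PLK1: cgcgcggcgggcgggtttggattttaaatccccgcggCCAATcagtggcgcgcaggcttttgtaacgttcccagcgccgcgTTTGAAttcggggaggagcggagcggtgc
CCNB2: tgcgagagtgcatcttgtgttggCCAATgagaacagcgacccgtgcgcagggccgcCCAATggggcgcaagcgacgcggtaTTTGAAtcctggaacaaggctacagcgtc
CDC20: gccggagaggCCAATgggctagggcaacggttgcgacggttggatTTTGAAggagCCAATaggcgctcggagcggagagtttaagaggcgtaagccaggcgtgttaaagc
KIF11: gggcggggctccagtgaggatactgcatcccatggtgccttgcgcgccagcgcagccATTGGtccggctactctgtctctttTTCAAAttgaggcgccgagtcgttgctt
MKI67: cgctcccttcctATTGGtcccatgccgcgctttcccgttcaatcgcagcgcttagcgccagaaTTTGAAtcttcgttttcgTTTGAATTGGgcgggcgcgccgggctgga
CENPA: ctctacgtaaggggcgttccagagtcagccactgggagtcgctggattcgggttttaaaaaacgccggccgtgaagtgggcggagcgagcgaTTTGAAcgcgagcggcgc
CCNB1: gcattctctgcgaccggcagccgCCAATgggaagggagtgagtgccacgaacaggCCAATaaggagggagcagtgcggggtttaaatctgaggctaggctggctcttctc
HMMR: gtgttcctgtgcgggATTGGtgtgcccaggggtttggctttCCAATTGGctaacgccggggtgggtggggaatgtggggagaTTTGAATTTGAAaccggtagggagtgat

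In the PLK1 and CCNB2 stretches TTTGAA begins 29 bases before the start, and in KIF11 the match on the other strand lies 28 bases before it. CDC20 has TTTGAA at 65 bases, between CCAAT boxes at 100 and 55 bases. MKI67 has 2 copies, at 47 and 29 bases, the second of which overlaps a CCAAT match of the other strand. HMMR has 2 adjoining copies of TTTGAA, at 28 and 22 bases, and CCAAT matches at 95, 69 and 66 bases, of which the last 2 overlap. Among the 37 genes, the 26 with TTTGAA in at least 1 promoter had a median log2 fold change of 0.99 at 100 µM (-0.29 to 1.81), and the 11 without it 0.92 (0.28 to 1.42). From 100 to 1000 µM the medians were -0.48 and -0.67. The ranges of the genes with and without the motif overlapped.

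**Figure D2:**
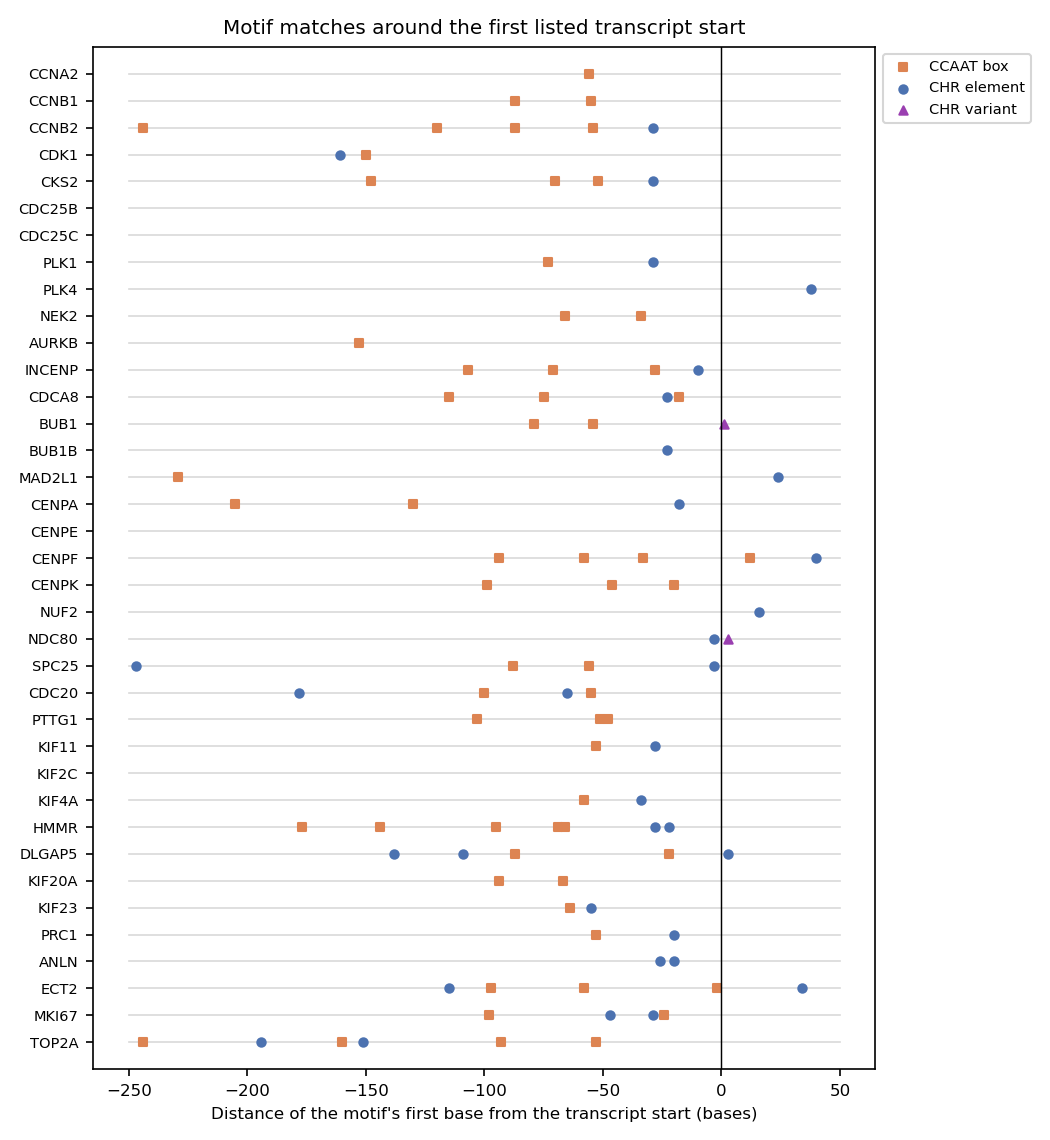
Horizontal axis: distance in bases of a motif's first base from the first listed RefSeq transcript start (0); each grey line is the 300-base window of 1 of the 37 genes with a promoter. Circles are the CHR element, triangles its variant and squares the CCAAT box, either strand; circles gather within 50 bases before the start, with most squares farther out, and lines with no symbol hold none of the motifs in that promoter.

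Counts of members by role stand beside shares of all features of 23.6% higher and 22.9% lower at 100 µM, 28.5% higher and 29.1% lower at 1000 µM, and 22.3% lower from 100 to 1000 µM. Of the 9 genes of the cyclin-CDK switch 8 were called higher at 100 µM (median log2 fold change 1.00), and CDC25B (0.28) did not pass the test. CCNB1 (ENSG00000134057.15, chr5:69167010-69178245, plus strand) encodes cyclin B1, the partner of CDK1 at mitotic entry. Its controls had 70.6, 73.8 and 89.6 CPM and its 10 µM libraries 113, 109.9 and 104. At 100 µM CCNB1 stood at 163, 152 and 157 CPM and at 1000 µM at 93.6, 95.8 and 106. The 100 µM libraries lay above all others, and the 1000 µM libraries overlapped those at 10 µM but not the controls. CCNB1 rose 2.02-fold at 100 µM, a log2 fold change of 1.01 ± 0.10 (SE; edgeR's adjusted p 2.02e-07), and fell by 0.68 from 100 to 1000 µM. Its call at 1000 µM against control (0.34) was lost with the library set as a term (-0.025) and without control replicate 1 (0.26).

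CCNA2 (ENSG00000145386.10, chr4:121816444-121823933, minus strand) encodes cyclin A2, which acts in S phase and up to mitosis. In control it had 55.7, 62.8 and 72.5 CPM, and over the 12 libraries from 0.01 to 10 µM 50.05 to 73.6. At 100 µM it had 136, 129.5 and 139 CPM and at 1000 µM 76.8, 79.8 and 83.7. All 6 libraries of the 2 highest doses were above all 15 others, and the groups did not overlap with each other. The log2 fold change was 1.08 ± 0.11 at 100 µM and 0.33 ± 0.11 at 1000 µM, where the call was lost without control replicate 1 (0.24). CCNA2 shares exon bases with EXOSC9 on the other strand, so without knowledge of the counting its counts are partly uncertain.

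FOXM1 (ENSG00000111206.12, chr12:2857681-2877155, minus strand), the transcription factor that activates many of these genes in G2, had the largest fall of the 46 from 100 to 1000 µM without the set term, and the second largest with it. Its controls had 62, 66.8 and 53.4 CPM. At 100 µM it stood at 124, 88.8 and 127 CPM, and at 1000 µM at 39.2, 39.9 and 71.9. Each 100 µM value was above all controls, while 2 of the 1000 µM values were below all controls and replicate 3, of set C, was above them. The fall from 100 to 1000 µM was -1.17 ± 0.19 on the log2 scale (-0.99 with the set term), and the difference between 1000 µM and control (-0.27) did not pass but did without replicate 3 at 1000 µM (-0.62). Its exons overlap those of ITFG2 on the other strand. Of the remaining genes of the switch, CDK1 (1.35 at 100 µM and 1.12 at 1000 µM), its activating phosphatase CDC25C (1.05 and 0.92) and CKS2 (0.75, and 0.53, which did not pass) were not called between these doses. CDC25C shares exon bases with FAM53C on the other strand, which had more counts than CDC25C, so its counts are uncertain. The CDK1-inhibiting kinase WEE1 rose at both doses (0.78 and 0.52), as did CCNB2, cyclin B2 (1.00 and 0.62), though with the set term CCNB2 was called neither at 1000 µM (0.49) nor between these doses (-0.26). CKS2, a small CDK-binding protein, was the only 1 of the 9 not higher at 100 than at 10 µM (-0.13), and with the set term its call at 100 µM was lost and both signs turned (-0.10 at 100 µM and -0.50 at 1000 µM).

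**Figure D3:**
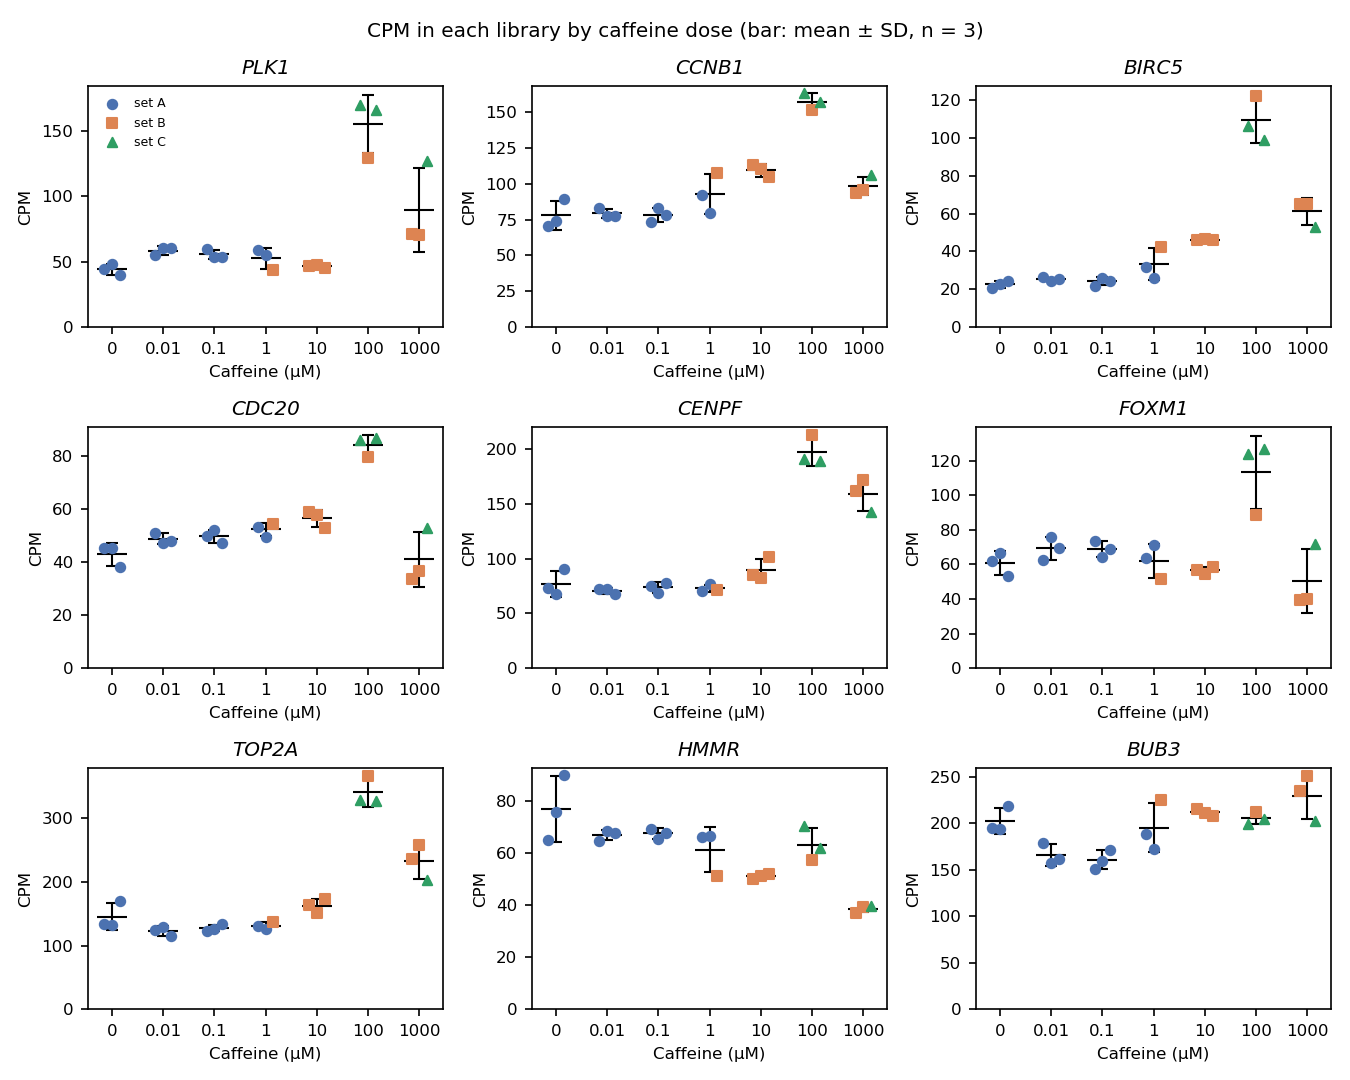
CPM (vertical axis, from 0) by caffeine dose in µM (horizontal axis) for 9 genes; symbols are single libraries, coloured and shaped by library set, and bars give the mean ± SD of 3 libraries. PLK1, BIRC5, CENPF and TOP2A peak at 100 µM and stay above control at 1000 µM, FOXM1 and CDC20 stand below control in 2 of the 3 libraries at 1000 µM, HMMR falls to 36.9 to 39.4 CPM at 1000 µM, and BUB3 does not peak at 100 µM.

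Of the 6 other mitotic kinases 5 were higher at 100 µM (median 1.01), and 5 were lower at 1000 than at 100 µM. PLK1 (ENSG00000166851.15, chr16:23677656-23690367, plus strand), a kinase needed from mitotic entry to cytokinesis, had 44.6, 47.9 and 39.4 CPM in control and 43.6 to 60.3 over the 12 libraries from 0.01 to 10 µM. At 100 µM it had 169.6, 129 and 166 CPM, and at 1000 µM 71.4, 70.4 and 127. The 100 µM libraries were all above the rest, and at 1000 µM replicate 3 (set C) was well above replicates 1 and 2 (set B). PLK1 rose 3.52-fold at 100 µM (log2 fold change 1.81 ± 0.18, edgeR's adjusted p 1.99e-07) and was still 2.03-fold above control at 1000 µM. Within set C the 1000 µM library was lower than the mean of the 100 µM libraries by a log2 difference of -0.40, and within set B the difference was -0.87.

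PBK (ENSG00000168078.10), also called TOPK, is a kinase of mitotic cells and had the largest rise of the group at both high doses. It was the least counted of the mitotic kinases, with 3.64, 3.92 and 5.60 CPM in control. The 10 µM libraries had 6.96, 7.39 and 7.61 CPM, the 100 µM libraries 33.8, 31.4 and 32.8 and the 1000 µM libraries 21.9, 24.3 and 20.2. These 4 groups did not overlap. The change was 7.49-fold at 100 µM (log2 2.90 ± 0.17) and 5.09-fold at 1000 µM (log2 2.35 ± 0.17), and with the set term 2.43 and 1.86. The fall from 100 to 1000 µM (-0.56) was not called with only sets A and B (-0.46).

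AURKA (ENSG00000087586.17, chr20:56369389-56392337, minus strand), the kinase of spindle poles, was the most abundant of the kinases. In control it had 163, 175 and 206 CPM, at 100 µM 246, 230.2 and 239 and at 1000 µM 146, 150.3 and 169.7. The 100 µM libraries were above all others, and the 1000 µM range overlapped that of the controls. It rose by 0.40 ± 0.087 on the log2 scale at 100 µM. At 1000 µM it was called lower than control (-0.22, edgeR's adjusted p 0.0352), a call lost with the set term (-0.027), without a filter (-0.21), with only the 2 groups in the fit (-0.22), and when control replicate 3 (-0.12) or the 1000 µM replicate 1 (-0.18) or 2 (-0.20) was left out.

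TTK (ENSG00000112742.10, chr6:80003887-80042527, plus strand), also known as MPS1, starts the spindle checkpoint at kinetochores. Control libraries had 26.2, 24.4 and 31.7 CPM, those at 10 µM 19.4, 21.1 and 21.01, those at 100 µM 34.4, 30.7 and 32.6 and those at 1000 µM 19.7, 21.6 and 23.1. Values at 100 µM overlapped the controls, and all 6 libraries at 10 and 1000 µM were below them. TTK was lower at 1000 µM than in control (-0.35 ± 0.10) and at 10 µM (-0.42), and higher at 100 than at 10 µM (0.67). Both differences from control were lost with the set term (-0.21 and -0.23), and the 1000 µM call also with only the 2 groups in the fit (-0.35) and without control replicate 3 (-0.24). At 100 µM TTK (0.25) did not pass but did with DESeq2 and when control replicate 3 (0.38), the 0.1 µM replicate 2 (0.27), the 1 µM replicate 1 (0.25), the 100 µM replicate 2 (0.29) or the 1000 µM replicate 3 (0.25) was left out. PLK4, the kinase of centriole duplication, was called at 100 µM (0.85) and not at 1000 µM (0.13). NEK2, which separates centrosomes, was called at both doses (1.17 and 1.01).

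All 4 genes of the chromosomal passenger complex were higher at 100 than at 0 µM (23.6% of all features) and lower at 1000 than at 100 µM (22.3%). The complex corrects faulty attachments of chromosomes to the spindle and later acts at the division plane. BIRC5 (ENSG00000089685.15, chr17:78214186-78225636, plus strand), which encodes survivin, had 20.5, 22.9 and 24.2 CPM in control, 46.1, 46.4 and 46.3 at 10 µM, 106, 122 and 99.05 at 100 µM and 65.3, 65.2 and 53.02 at 1000 µM. The 4 groups did not overlap. BIRC5 rose 4.85-fold at 100 µM (log2 2.28 ± 0.14) and 2.72-fold at 1000 µM (log2 1.44 ± 0.14), the second largest rise at each dose after PBK without the set term. At 100 µM edgeR's adjusted p was 4.23e-10. The set term gave 1.90, still second, and 0.97, where NEK2 (1.24), CENPF (1.16), PLK1 (1.15) and others were higher.

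INCENP (ENSG00000149503.13, chr11:62123973-62153163, plus strand), the scaffold of the complex, changed least of the 4 in the fit without the set term. It had 39.1, 35.5 and 28.4 CPM in control, 41, 49.8 and 40.9 at 100 µM and 33.1, 34.7 and 32.05 at 1000 µM. The 100 µM values were just above the controls, whose own range was wide. The log2 fold change was 0.36 ± 0.11 at 100 µM and -0.045 ± 0.11 at 1000 µM, where it did not pass. The 100 µM call was lost with only the 2 groups in the fit (0.35) and when control replicate 3 (0.25) or the 100 µM replicate 2 (0.25) was left out. AURKB, its kinase, and CDCA8 (borealin) rose by 1.19 and 1.21 at 100 µM, and at 1000 µM stood at 0.23 (not called) and 0.73 (called).

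The spindle checkpoint delays anaphase until all kinetochores are attached. Of its 4 genes BUB1, BUB1B and MAD2L1 were higher at 100 µM and lower at 1000 than at 100 µM, and none of the 4 was called at 1000 µM against control, where their log2 fold changes were -0.07 to 0.20 (-0.08 to 0.32 with the set term, none called). BUB1 (ENSG00000169679.14, chr2:110637698-110678114, minus strand), a checkpoint kinase, had 53.2, 56.3 and 71.5 CPM in control, 103, 114 and 103 at 100 µM and 65.8, 67.5 and 69.03 at 1000 µM. The 1000 µM values lay inside the control range, and those at 100 µM above all other libraries. BUB1 rose by 0.82 ± 0.090 at 100 µM on the log2 scale and fell by 0.66 from 100 to 1000 µM. Without control replicate 3, the highest control, it was also called at 1000 µM (0.30).

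BUB3 (ENSG00000154473.18, chr10:123154277-123170467, plus strand), the partner that brings BUB1 and BUB1B to kinetochores, did not follow. Its values were 195, 194 and 219 CPM in control, 199, 212 and 204 at 100 µM and 235, 251 and 203 at 1000 µM. The range over the 6 libraries at 0.01 and 0.1 µM was 151 to 178, below all controls. None of its differences from control was called in the fit without the set term, with 0.018 ± 0.10 at 100 µM and 0.18 ± 0.10 at 1000 µM, and both signs turned with the set term (-0.18 and -0.082). Without replicate 3 at 1000 µM it was called higher at 1000 µM than in control (0.26) and than at 100 µM (0.24). The joint test called it (edgeR's adjusted p 0.000733). The BUB3 protein is used in interphase as well as in mitosis.

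All 7 centromere and kinetochore genes were higher at 100 µM (median 1.17, with 23.6% of all features higher), and 5 were higher at 1000 µM (median 0.70, with 28.5% of all features higher), the highest of the 9 role groups at 1000 µM without the set term. With the set term the median of the mitotic kinases was higher (0.71 against 0.67). CENPF (ENSG00000117724.13, chr1:214603195-214664588, plus strand), a large protein of the outer kinetochore, had 73.3, 67.6 and 90.5 CPM in control, 85.5, 82.6 and 102 at 10 µM, 192, 213 and 189 at 100 µM and 162, 172 and 143 at 1000 µM. All 6 values at the 2 highest doses were above all 15 others. The log2 fold change was 1.36 ± 0.11 at 100 µM and 1.04 ± 0.11 at 1000 µM, and the difference between them was -0.32. That call was lost with only sets A and B (-0.36) and when the 100 µM replicate 2 (-0.26) or the 1000 µM replicate 3 (-0.25) was left out.

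CENPA (ENSG00000115163.15, chr2:26764289-26801067, plus strand), the histone H3 variant that marks centromeres, had 5.81, 5.79 and 5.87 CPM in control, 8.74, 8.50 and 8.34 at 10 µM, 20.2, 20.9 and 18.3 at 100 µM and 15.4, 15.6 and 15.4 at 1000 µM. The 4 groups did not overlap. Its log2 fold change was 1.77 ± 0.12 at 100 µM and 1.41 ± 0.12 at 1000 µM (1.31 and 0.93 with the set term). CENPA shares exon bases with SLC35F6 on the same strand, which had more counts than CENPA, so its counts are uncertain.

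CENPE (ENSG00000138778.11, chr4:103105806-103198409, minus strand), a motor that moves chromosomes to the spindle equator, had 37.5, 35.2 and 43.2 CPM in control, 26.5 to 36.5 over the 12 libraries from 0.01 to 10 µM, 52.7, 52.2 and 49.8 at 100 µM and 53.9, 62.9 and 48.1 at 1000 µM. The ranges at 100 and 1000 µM overlapped and both lay above the controls. It rose by 0.42 ± 0.10 and 0.51 ± 0.10 on the log2 scale, and the difference between the doses (0.091 ± 0.10) was not called. With the set term the 100 µM call was lost (0.52, edgeR's adjusted p 0.0677).

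SPC25 (ENSG00000152253.9, chr2:168834132-168913371, minus strand), NDC80 and NUF2 are subunits of the NDC80 complex, which binds microtubules. SPC25 had 5.59, 5.24 and 7.98 CPM in control, 18.7, 12.3 and 18 at 100 µM and 6.81, 7.12 and 8.21 at 1000 µM. Its 1000 µM values overlapped the controls, and at 100 µM the set B library was lower than the set C libraries yet above all others. SPC25 rose by 1.38 ± 0.16 at 100 µM and fell from 100 to 1000 µM (-1.14 ± 0.16, and -0.98 with the set term). NDC80 stood at 1.06 at 100 µM and 0.99 at 1000 µM, with no call between the doses (-0.075), and NUF2 at 1.17 and 0.70. Genes of 1 complex thus had unlike values at 1000 µM, where SPC25 was at 0.24 and not called against control (0.44 and called without control replicate 3); the differences between these genes were not tested. CENPK, of the inner kinetochore, rose at 100 µM (0.66), a call lost with the set term (0.34).

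Among the 3 genes of anaphase, CDC20 and UBE2C were higher at 100 µM and lower at 1000 than at 100 µM. CDC20 (ENSG00000117399.14, chr1:43358955-43363203, plus strand), the activator of the APC/C, had 45.5, 45.2 and 38 CPM in control, 59.03, 57.9 and 52.8 at 10 µM, 85.98, 79.8 and 87 at 100 µM and 33.6, 36.7 and 52.9 at 1000 µM. At 1000 µM replicates 1 and 2 (set B) were below all 18 libraries of the other doses, and replicate 3 (set C) was above the controls. CDC20 rose by 0.97 ± 0.12 at 100 µM and fell by 1.04 from 100 to 1000 µM, and its difference from control at 1000 µM (-0.066) did not pass but did without replicate 3 at 1000 µM (-0.29). UBE2C, the ubiquitin-conjugating enzyme of the APC/C, was at 0.75 and 0.44, both called.

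PTTG1 (ENSG00000164611.13, chr5:160421822-160428744, plus strand), which encodes securin, the inhibitor of separase, was the 1 gene not called in the joint test (edgeR's adjusted p 0.0688). It had 49.9, 65.97 and 92.5 CPM in control, 46.2, 50.2 and 40.1 at 10 µM, 109, 58.5 and 105 at 100 µM and 46.1, 43.97 and 82.9 at 1000 µM. The 100 µM library of set B was inside the control range, both 1000 µM libraries of set B were below it, and the set C libraries were at or above 82.9 CPM. Its log2 fold change was 0.39 ± 0.28 at 100 µM, and the sign turned when only sets A and B were kept (-0.24). From 100 to 1000 µM PTTG1 (-0.66) did not pass but did with DESeq2 and when control replicate 3 (-0.67), the 100 µM replicate 2 (-0.90) or the 1000 µM replicate 3 (-1.01) was left out. Its near-identical copies PTTG2 and PTTG3P held almost no counts.

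Of the 6 genes of spindle motors and assembly, 5 were higher at 100 and at 1000 µM, all 6 were lower at 1000 than at 100 µM, and HMMR went the other way against control. TPX2 (ENSG00000088325.16, chr20:31739271-31801805, plus strand), which starts microtubules near chromosomes and activates AURKA, had 174, 184 and 221 CPM in control, 328, 309 and 331 at 100 µM and 242, 246 and 288 at 1000 µM. All 6 values at the 2 highest doses were above all 15 others. TPX2 rose by 0.74 ± 0.11 at 100 µM and 0.42 ± 0.11 at 1000 µM. The call between these doses (-0.32) was lost with only sets A and B (-0.36) and when the 100 µM replicate 1 (-0.31) or 3 (-0.31) or the 1000 µM replicate 1 (-0.27) or 2 (-0.29) was left out. KIF11 (the bipolar spindle motor), KIF2C (a microtubule depolymerase), KIF4A (a chromokinesin) and DLGAP5 (a microtubule-bundling protein) rose by 1.53, 1.42, 1.16 and 0.84 at 100 µM. At 1000 µM they stood at 0.77, 0.74, 0.52 and 0.36, all called, of which DLGAP5 lost its call with the set term (0.25). KIF4A shares exon bases with PDZD11 on the other strand.

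HMMR (ENSG00000072571.20, chr5:163460203-163491945, plus strand) encodes a spindle protein that is also a hyaluronan receptor. Its controls had 64.9, 75.6 and 89.9 CPM and its 10 µM libraries 49.97, 51.2 and 51.7. At 100 µM it stood at 70.1, 57.1 and 61.7 CPM and at 1000 µM at 36.9, 39.4 and 39.4. The 1000 µM libraries were below all 18 others. HMMR fell to 0.502 of control at 1000 µM (log2 -0.99 ± 0.11, edgeR's adjusted p 3.24e-07), and remained lower with the set term (-0.66). It was the only 1 of the 46 called lower at 100 µM (-0.29), but the ranges overlapped there and the set term gave -0.0005. Its call at 100 µM was also lost without a filter, with the replicate block, with only the 2 groups in the fit, and when any 1 of 5 libraries was left out (control replicates 2 and 3, the 0.1 µM replicate 2, the 100 µM replicates 2 and 3), with values from -0.14 to -0.30.

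The 5 genes of the central spindle and cytokinesis divided at 1000 µM. All but PRC1 were higher at 100 µM (median of the 5, 0.59). ANLN (ENSG00000011426.11, chr7:36389806-36453791, plus strand), anillin of the contractile ring, had 82.8, 78.9 and 98.97 CPM in control, 132, 129 and 132 at 100 µM and 63.2, 67.1 and 66.95 at 1000 µM. The 3 groups did not overlap, and the order was 1000 µM, control, 100 µM. ANLN rose by 0.59 ± 0.092 at 100 µM and was lower than control at 1000 µM (-0.40 ± 0.093), a call lost with the set term (-0.27), and its exons overlap those of KIAA0895 on the other strand.

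ECT2 (ENSG00000114346.13, chr3:172750682-172821474, plus strand), the exchange factor that activates RhoA at the division plane, had 71.02, 67.4 and 90.9 CPM in control, 109, 101 and 108 at 100 µM and 107, 116 and 102 at 1000 µM. The ranges at the 2 doses overlapped, and both lay above all controls. Its log2 fold changes were 0.47 ± 0.092 and 0.51 ± 0.092, and the difference between the doses was 0.034 ± 0.092. With the set term the 100 µM call was lost (0.48, edgeR's adjusted p 0.0680).

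KIF20A (ENSG00000112984.12, chr5:138178719-138187715, plus strand), the motor that takes the passenger complex to the midzone, had 36.98, 40.5 and 41.2 CPM in control, 74.4, 76.7 and 72.9 at 100 µM and 35.03, 34.4 and 36.8 at 1000 µM. All 1000 µM values were below all controls and the 100 µM values above all other libraries. It rose by 0.92 ± 0.091 at 100 µM and fell by 1.08 from there to 1000 µM, the largest fall of the 46 with the set term (-1.07), while its difference from control at 1000 µM (-0.16) did not pass and turned sign with the set term (0.18). KIF20A shares exon bases with BRD8 and CDC23 on the other strand. KIF23, a subunit of centralspindlin, was at 0.90 and 0.48, both called. PRC1, the microtubule bundler of the midzone, was at 0.30 and 0.020, neither called, but it shares most of its exon bases with AC068831.7 on the same strand, and with the set term it was called at both doses (1.11 and 0.81).

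MKI67 and TOP2A, proteins of mitotic chromosomes, were both higher at 100 µM. MKI67 (ENSG00000148773.14, chr10:128096659-128126385, minus strand), which encodes the proliferation marker Ki-67, had 227, 213 and 235 CPM in control, 452, 394 and 442 at 100 µM and 223, 229 and 282 at 1000 µM. Its 1000 µM values overlapped the controls. MKI67 rose by 0.93 ± 0.14 at 100 µM, and at 1000 µM the value of 0.12 ± 0.14 did not pass. TOP2A (ENSG00000131747.15, chr17:40388516-40417950, minus strand), the topoisomerase that untangles sister chromatids, had 135, 132 and 169.7 CPM in control, 329, 367 and 327 at 100 µM and 237, 258 and 203 at 1000 µM. Its 3 groups did not overlap, and it rose by 1.23 ± 0.10 at 100 µM and 0.68 ± 0.10 at 1000 µM.

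**Figure D4:**
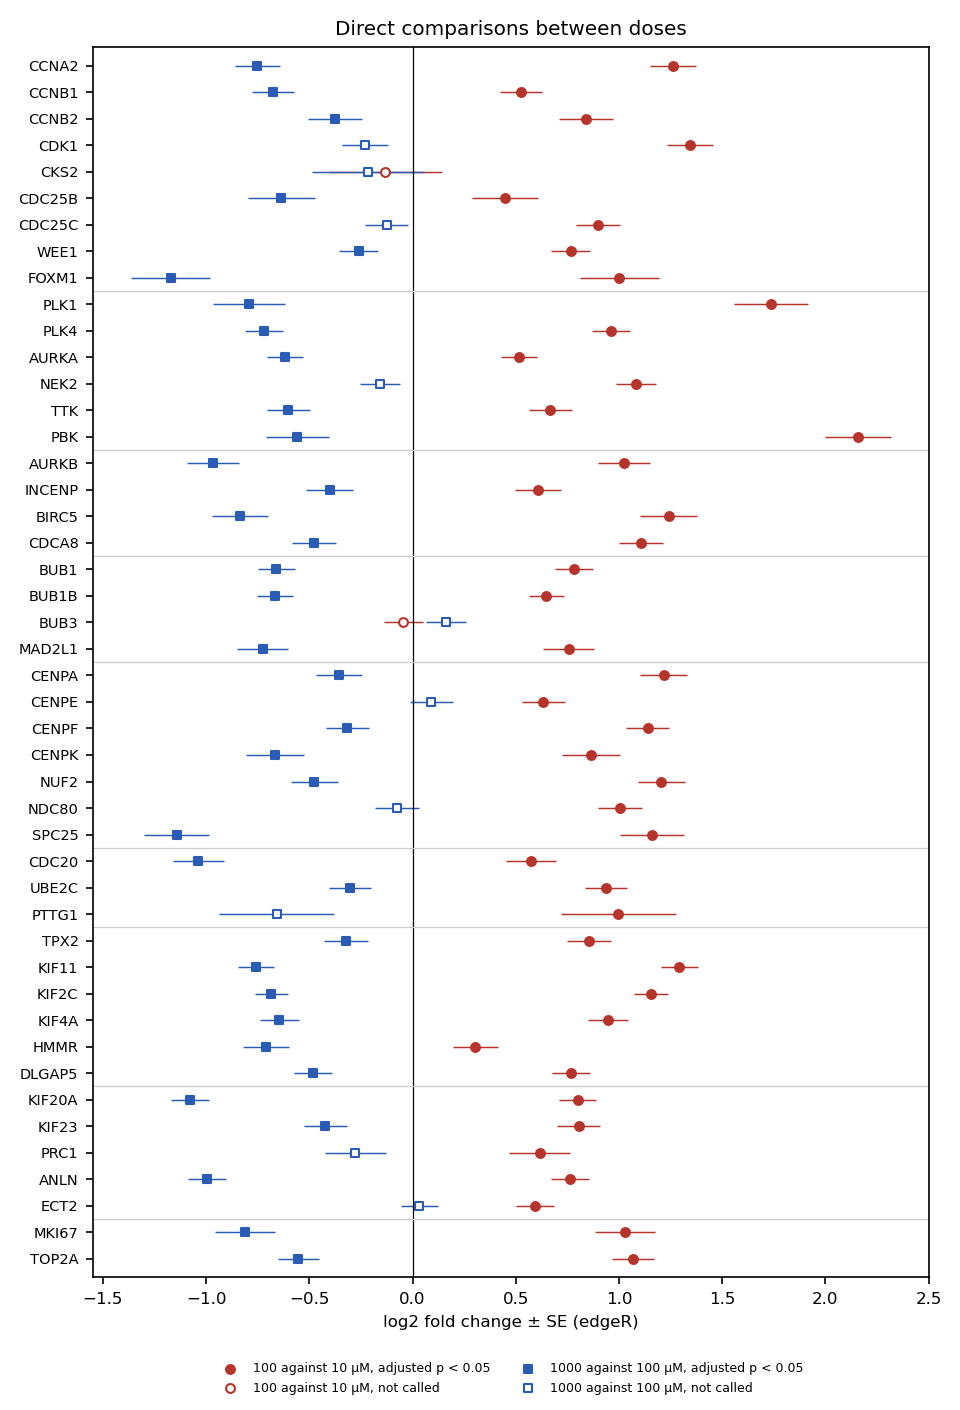
Log2 fold change with its SE (horizontal axis) for each of the 46 genes (rows, by role) between doses: circles are 100 against 10 µM and squares 1000 against 100 µM, filled where the adjusted p by edgeR is under 0.05. Filled circles lie to the right of 0 for 44 genes and filled squares to the left for 36, and CKS2 and BUB3 have open symbols in both comparisons.

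Per length of merged exons, the mean level over the 21 libraries spanned from CKS2 (76.4 CPM per kb), AURKA (63.2) and TPX2 (62.2) down to CDC25C (3.96), CENPK (3.38) and WEE1 (1.58). The lowest count of any of the 46 genes in any library was 108 (PBK) and the highest 18502 (MKI67).

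The rise at 100 µM and the fall at 1000 µM were also present within library sets. In set B the single 100 µM library was above all 3 libraries at 10 µM for 44 of the 46 genes (37.8% of all features), with a median log2 difference of 0.84. It was above both 1000 µM libraries for 42 of the 46 (44.1% of all features; median of 1000 minus 100 µM, -0.56). In set C the single 1000 µM library was below both 100 µM libraries for 44 of the 46 (42.4% of all features; median -0.52). In set B both 1000 µM libraries were above all 10 µM libraries for 31 genes (38.7% of all features) and below them for 8 (38.7% of all features). The 8 were CCNB1, CDC25B, FOXM1, AURKA, CDC20, HMMR, KIF20A and ANLN. A test in set B alone called 36 of the 46 between 1000 and 10 µM, 27 higher and 9 lower, where 65.1% of all features were called, 31.5% higher and 33.6% lower.

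With the set as a term, 37 of the 46 were higher and 0 lower at 100 µM (17.3% of all features called, 9.14% higher), and 23 were higher and 2 lower at 1000 µM (38% called, 18.2% higher and 19.8% lower). That fit called 36 lower and 0 higher at 1000 than at 100 µM (46.3% called, 23.9% lower) and 41 higher and 0 lower at 100 than at 10 µM (28.7% called, 14.9% higher). The 3 genes not called between 100 and 10 µM with the term but called without it were CDC25B (0.10 with the term), PTTG1 (0.36) and HMMR (0.21). Between 1000 and 10 µM it called 27 higher and 6 lower (59.1% called, 29.2% higher and 29.9% lower). The 2 genes lower at 1000 µM than in control with the term were HMMR (-0.66) and CDC25B (-0.53), a phosphatase that activates CDK1.

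Other genes of the cell cycle were counted on lists of their own, beside 23.6% of all features higher and 22.9% lower at 100 µM, and 28.5% and 29.1% at 1000 µM. Of 30 further centromere and kinetochore genes 20 were higher and 4 lower at 100 µM, and 5 higher and 11 lower at 1000 µM. Of 24 further spindle and cytokinesis genes 19 were higher and 1 lower at 100 µM, and 10 higher and 5 lower at 1000 µM. Condensin and cohesin genes counted 14 higher and 1 lower of 18 at 100 µM, and 7 and 3 at 1000 µM. APC/C subunits and mitotic exit genes, many of them made throughout the cycle, counted 10 higher and 3 lower of 21, then 5 and 5. Genes of the G2 checkpoint counted 7 higher and 1 lower of 15, then 6 and 6. The set term gave higher and lower counts at 100 µM of 11 and 1 for the centromere list, 19 and 0 for the spindle list, 11 and 1 for condensin and cohesin, 5 and 1 for the APC/C and 4 and 1 for the G2 checkpoint, beside 9.14% of all features higher in that fit. At 1000 µM it gave 3 and 7, 8 and 4, 6 and 1, 4 and 4, and 4 and 5 for these lists in turn, beside 18.2% of all features higher and 19.8% lower.

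Regulators of the programme (DREAM, MMB and E2F genes) counted 14 higher and 2 lower of 21 at 100 µM, and 7 higher and 10 lower at 1000 µM (11 and 1, then 6 and 7, with the set term). LIN37, a subunit of the MuvB core, had the largest fall of the list at 100 µM, from 9.35 ± 1.06 CPM in control to 3.63 ± 1.24 at 100 µM and 4.73 ± 0.719 at 1000 µM (SD, n = 3; log2 -1.34 and -0.98). LIN52, also of MuvB, was the other 1 lower at 100 µM (-0.22), and its sign turned with the set term (0.10). MYBL2, which encodes B-MYB, had 111 ± 10.2 CPM in control, 166 ± 2.16 at 100 µM and 44.99 ± 13.96 at 1000 µM (SD, n = 3), a log2 fold change of 0.58 ± 0.14 and then -1.31 ± 0.14. RBL1, which encodes the pocket protein p107 of DREAM, went from 6.51 ± 0.535 CPM in control to 44.1 ± 1.49 at 100 µM and 24.5 ± 2.15 at 1000 µM (log2 2.76 and 1.91). E2F7 and E2F8, repressors of E2F targets, were higher at 100 µM (0.59 and 1.69) and lower than control at 1000 µM (-1.36 and -0.54), though the 1000 µM call of E2F8 was lost with the set term (-0.078).

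The 38 genes of DNA replication and G1/S shared the rise at 100 µM and differed at 1000 µM. At 100 µM 37 of the 38 were higher and 0 lower, with a median log2 fold change of 0.86 against 0.92 for the 46 mitotic genes. At 1000 µM 3 were higher and 25 lower than in control (median -0.53), while the mitotic genes counted 25 higher and 4 lower (median 0.39). From 100 to 1000 µM 37 of the 38 were lower, by a median of 1.37 against 0.61 for the mitotic genes. GINS2, a subunit of the replicative helicase, went from 8.90 ± 1.29 CPM in control to 28.8 ± 3.53 at 100 µM and 3.69 ± 0.585 at 1000 µM (SD, n = 3), log2 fold changes of 1.69 and -1.28. PRIM1, a primase subunit, was the exception not called lower, with 49.8 ± 9.76 CPM at 100 µM and 67.99 ± 25.5 at 1000 µM. With the set term the replication list counted 30 higher and 0 lower at 100 µM (9.14% of all features higher), and 2 higher and 21 lower at 1000 µM (18.2% and 19.8%). The difference between the lists was not tested.

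**Figure D5:**
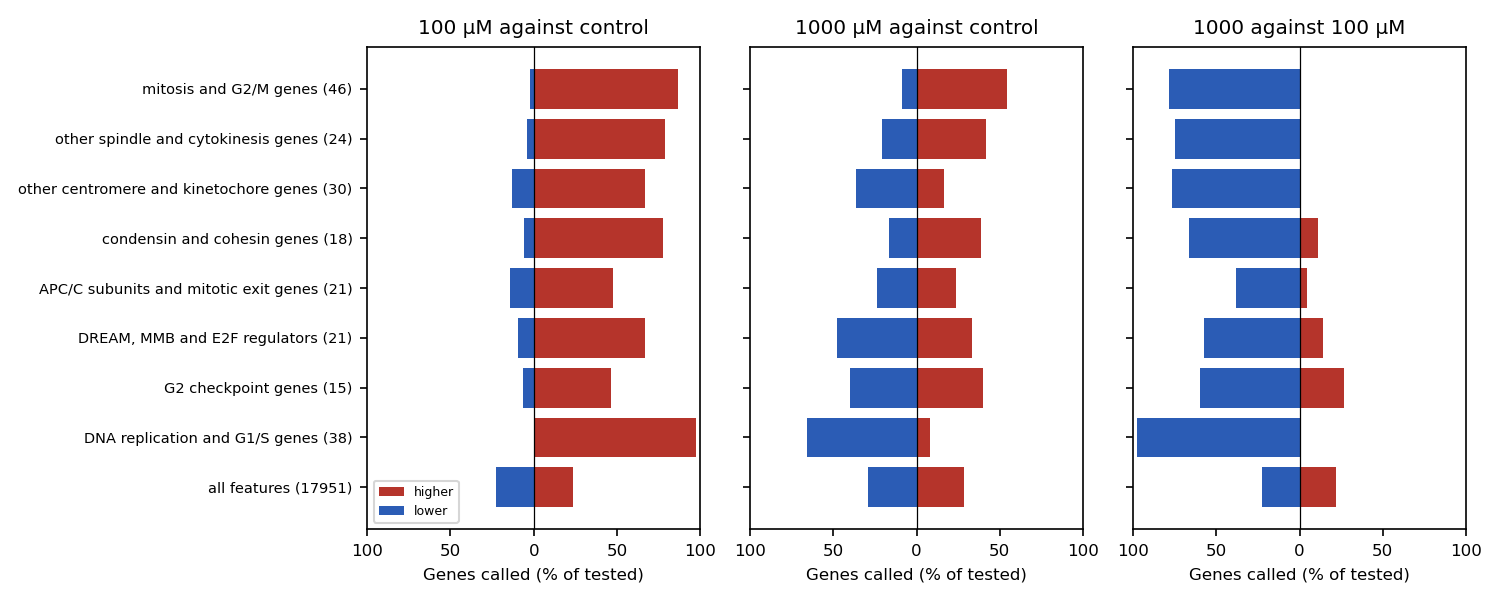
Share of the genes tested on each list (rows, number tested in brackets) that were called higher (to the right) or lower (to the left), in percent, for 100 µM against control, 1000 µM against control and 1000 against 100 µM. At 1000 µM against control the bar of the 46 mitotic genes reaches farther to the right and that of the replication and G1/S genes farther to the left; the bottom bar gives all 17951 features.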

How the data were processed

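RNA of HepG2 cells at 7 caffeine doses was sequenced, 3 libraries each. The authors deposited raw read counts per Ensembl gene in 1 table, per the file headers. The submitters' processing notes name HISAT2, DESeq2 and GRCh38; the counter, annotation, strand setting and versions are not given in the sources used here, so counts of genes with shared exons are uncertain. The table's 21 other per-sample columns were not used. Symbols were matched for 24843 of the 37637 features, including all 46 members; positions, exon lengths and exon overlaps are from GENCODE 29 on GRCh38 and may differ from the authors' annotation. RefSeq starts can differ from these.

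Counts as deposited went into edgeR 4.0.16 (R 4.3.3, limma 3.58.1): filterByExpr, TMM scaling, and 1 robust quasi-likelihood fit over all 21 libraries, so that all groups share 1 estimate of the spread. p-values were Benjamini-Hochberg adjusted over the 17951 features tested, with a threshold of 0.05. Log2 CPM carry a prior count of 2, while log2 fold changes use edgeR's default prior count. The SE is the absolute log2 fold change over the square root of F. CPM use TMM library sizes. The code was tested on simulated data. Depth was 23502519 to 44815552 counts per library.

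The members and lists were chosen with earlier results of these data known. Genes given by library are the 2 highest by mean CPM in each role group, up to 3 called rises and 3 called falls of largest size at 100 and 1000 µM against control and between them, and members not called jointly; of other lists, genes among the 2 largest called changes each way at 100 and 1000 µM could be named. Genes named outside this rule were chosen after their values were seen.

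Alternatives were DESeq2 size factors, DESeq2 1.42.0, no low-count filter, replicate number as a block, library set as a term (sets from clustering the 13 mitochondrial mRNAs), only the groups compared, set B alone for 1000 against 10 µM, and each library left out. Keeping only sets A and B was added after seeing the data.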

Additional observations from a re-analysis of the deposited data

How the results depend on the processing

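Total counts of called genes among the 46, both directions together, kept within 1.5 times their value at 100 and 1000 µM against control, in the 3 comparisons between doses and in the joint test, under all alternatives run. At 0.01 µM the count went from 0 to 3 with DESeq2, 5 with the set term and 1 with only sets A and B, at 1 µM from 0 to 2, 1 and 2, and at 10 µM from 9 to 0 with the set term; the cause was not tested. Leaving out 1 library at a time gave 0 to 0 genes at 0.01 and 0.1 µM, up to 1 at 1 µM (without its replicate 2 or the 1000 µM replicate 3), between 5 (without the 10 µM replicate 1) and 11 at 10 µM, 39 to 43 at the 100 µM dose, and at 1000 µM 27 (without control replicate 1) to 35 (without the 1000 µM replicate 3). It gave 41 to 44 for 100 against 10 µM, 25 to 30 for 1000 against 10 µM, 32 to 38 for 1000 against 100 µM and 44 to 46 jointly. Replicate numbers did not pair the libraries: the mean correlation of same-numbered deviations ran from -0.40 to 0.29 over 21 pairs of groups, above 0.1 in 5, and 3 of 21 libraries were closest to their own number. With the replicate block the counts were 0, 0, 0, 7, 40 and 29 from 0.01 to 1000 µM, 43 for 100 against 10 µM, 28 for 1000 against 10 µM, 36 for 1000 against 100 µM and 45 jointly. For the 24 members given by library, at 100 and 1000 µM against control and between these doses, 1945 values kept direction and call, 20 gained and 35 lost the call, and 16 turned sign, none of which was called with the turned sign. These were BUB3 at 100 µM (set term -0.18; -0.0093 without control replicate 1, -0.012 without control replicate 2, -0.0070 without the 100 µM replicate 2, up to 0.093 without another library) and 1000 µM (set term -0.082), PTTG1 at 100 µM (sets A and B -0.24), and at 1000 µM CCNB1 (set term -0.025), INCENP (set term 0.20; 1 library left out, -0.16 to 0.054), CDC20 (1 library left out, -0.29 to 0.060, with 0.0076 without replicate 2), MKI67 (sets A and B -0.00091) and KIF20A (set term 0.18). From 100 to 1000 µM they were CENPE (1 library left out, -0.015 to 0.17) and ECT2 (-0.017 to 0.071, with -0.0011 without the 100 µM replicate 2). Of the other members, not counted here, the set term turned the sign of CKS2 at 100 (-0.096, called at 0.75 without it) and 1000 µM (-0.50), CDC25B at 100 µM (-0.027), and BUB1B (0.10) and MAD2L1 (-0.017) at 1000 µM, none of them called with it. With 3 libraries a group and set confounded with dose, small differences from control at 10 µM cannot be told apart from set differences.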
